A study of Mus musculus with 12 samples.

Results

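Intergenic chromatin close to genes was examined in hepatocytes of fasted and fed mice. The regions are the ATAC-seq peaks that the deposited table annotates as intergenic and places at most 25 kb from a gene start. They numbered 5409 of 52530 peaks (10.3%). ATAC-seq uses a transposase that cuts and tags accessible DNA, so that the reads in a peak measure how open that stretch is. Accessible DNA between genes often holds enhancers, short stretches that bind transcription factors and raise the transcription of genes at a distance. In the liver, fasting brings glucagon and glucocorticoids up and insulin down. The factors they act on (CREB, the glucocorticoid receptor, PPARα, FOXO1, SREBP) bind in part at such distal sites. The gene nearest to a peak is not always the gene it acts on.

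The study fasted female HEP-INTACT mice for 16 h from ZT12, the start of their active phase, and took livers at the same hour from control mice that had eaten freely. In INTACT mice the nuclei of one cell type carry a genetic tag and are pulled from whole tissue on beads, here hepatocyte nuclei. The 4 groups were fasted frozen, fasted fresh, fed frozen and fed fresh liver, with 3 libraries each from 3 fasted and 3 fed mice, 1 frozen and 1 fresh library per mouse. All mice carried the tag and all nuclei went through the pull-down. For strain, age and the promoter behind the tag, the sources used here give nothing.

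Libraries held 3692152 to 14506057 reads in peaks, and the median peak of this class held 46 to 191 reads per library, a counting error of 14.7% to 7.24%. Hepatocyte markers were open: 15 of 16 had a peak within 1 kb of the start (not Ttr), with summed levels of 4906 to 7170 normalized reads in fasted and 4747 to 6338 in fed libraries. The sums were 5885 to 7170 in frozen and 4747 to 5200 in fresh libraries. Start peaks were present for 0 of 8 macrophage and 0 of 8 lymphocyte markers, and for 1 each of 10 endothelial, 8 stellate and 6 bile duct markers. The endothelial start peak, of Tie1, was lower in fasted mice and summed to 24.4 to 39.999 reads in fasted and 48.2 to 78.1 in fed libraries. Because nuclei were measured in bulk, fewer nuclei with an open region and less opening per nucleus cannot be told apart.

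The 5409 peaks are 200 bp windows on build mm10, spread over 20 chromosomes and 3110 nearest genes. A single peak fell to 1895 genes, 2 or 3 to 961 and 4 or more to 254, and 3 peaks had no gene symbol. Upstream of the nearest start lay 4248 (78.5%) and downstream 1161, at a median distance of 9.30 kb. Mean levels ran from 26.8 to 637 normalized reads with a median of 103. A further peak of the table overlapped 623 (11.5%), and such neighbours share reads. Just inside the limit, the peaks of Itm2b and Reg4 at 24.99 kb had log2 differences of -0.11 and 0.42 between fasted and fed mice, and just outside, the peak of 6030471H07Rik at 25.01 kb had 0.32.

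The annotation intergenic depends on the gene set. In RefSeq (GRCm38.p6, the assembly behind mm10), 1445 of the peaks (26.7%) lay inside a listed gene body, 782 of them in long noncoding RNA genes alone and 497 in protein-coding genes alone. Of 5405 peaks whose nearest gene was matched, that gene was protein-coding for 4627, a long noncoding RNA for 567 and a microRNA for 153. RefSeq promoter windows, from 250 bases before to 50 bases after a gene start, overlapped 124 peaks, and 104 of these windows belonged to long noncoding RNAs.

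A peak's own sequence could be read where it lay whole inside such a window, which was so for 44 peaks. The 5 sequences below are, among those, the 2 peaks with the largest called rise, the 2 with the largest called fall, and the peak of the cholesterol gene Sc5d described further on. Each is printed 5′ to 3′ on the strand of the RefSeq gene that starts there, from RefSeq GRCm38.p6, with capitals for a match to any motif searched.
Sik1, chr17:31871073-31871273, minus strand at Gm30509: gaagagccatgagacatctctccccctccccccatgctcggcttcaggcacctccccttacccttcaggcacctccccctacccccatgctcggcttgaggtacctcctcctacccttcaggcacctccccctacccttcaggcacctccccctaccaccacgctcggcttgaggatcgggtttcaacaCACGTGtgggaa
Fos, chr12:85451858-85452058, plus strand at Gm38543: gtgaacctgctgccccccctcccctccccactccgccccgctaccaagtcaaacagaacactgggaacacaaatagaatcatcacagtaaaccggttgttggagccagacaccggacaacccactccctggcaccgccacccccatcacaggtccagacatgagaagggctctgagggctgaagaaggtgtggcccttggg
Mblac1, chr5:138207336-138207536, minus strand at Gm454: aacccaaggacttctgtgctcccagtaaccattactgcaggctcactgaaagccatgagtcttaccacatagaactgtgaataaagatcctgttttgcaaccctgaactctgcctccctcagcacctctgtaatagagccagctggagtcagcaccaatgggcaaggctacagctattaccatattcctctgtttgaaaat
Bag3, chr7:128499858-128500058, minus strand at Gm40457: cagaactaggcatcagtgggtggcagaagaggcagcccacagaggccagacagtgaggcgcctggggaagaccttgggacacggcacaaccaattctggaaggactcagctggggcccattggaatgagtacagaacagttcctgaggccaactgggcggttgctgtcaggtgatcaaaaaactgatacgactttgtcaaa
Sc5d, chr9:42279859-42280059, minus strand at Gm36435: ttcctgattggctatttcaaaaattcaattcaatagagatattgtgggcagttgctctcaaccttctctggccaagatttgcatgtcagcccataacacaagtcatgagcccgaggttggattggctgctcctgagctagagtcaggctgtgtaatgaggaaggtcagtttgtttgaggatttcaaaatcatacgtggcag
The Sik1 sequence holds an E-box near its end, CACGTG, the letters bound by clock and related factors, and no searched motif was found in the other 4. On both strands an E-box stood in 3 of the 44 sequences (6.82%) and in 5.28% of equally long stretches of 32851 RefSeq promoter windows. The forkhead letters TGTTTAC or TGTTTGC stood in 7 (15.9%, against 5.80% of windows), and the C/EBP letters TTGCGCAA, TTGCACAA or TTACGCAA in 3 (6.82%, against 0.97%). No match was found for CREB (TGACGTCA), the glucocorticoid receptor's palindrome or STAT5 (TTCCNGGAA), which stood in 1.47%, 0.63% and 0.76% of windows. These are matches of letters and not measured binding.

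At the Sik1 site the levels were 149, 83.0 and 135 normalized reads in the 3 fasted mice, against 33.0, 41.7 and 36.8 in the 3 fed mice, each value the mean of a mouse's frozen and fresh library. At the Fos site they were 110, 97.5 and 145 in fasted, against 42.9, 36.4 and 39.5 in fed mice. All fasted mice lay above all fed mice at both sites. The Mblac1 site had 99.9, 112 and 36.0 reads in fasted, against 159, 184 and 153 in fed mice. The Bag3 site had 45.0, 39.7 and 27.4 reads in fasted, against 86.8, 70.4 and 87.2 in fed mice, so fasted mice lay below fed mice at both. The log2 differences were 1.63 ± 0.21 (SE) at Sik1, 1.52 ± 0.17 at Fos, -1.16 ± 0.36 at Mblac1 and -1.13 ± 0.20 at Bag3.

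In the first comparison, fasted with fed mice over both preparations, intergenic peaks near genes opened and closed in large numbers, with more lower than higher. By limma on log2(normalized reads + 1), 879 of 5409 were higher and 1147 lower in fasted mice at adjusted p under 0.05, and 3383 were not called. This was 37.5% of them, against 34.6% of all 52530 peaks tested. The higher share was 16.3%, against 16.5% of all peaks, and the lower share 21.2%, against 18.1%. The median log2 difference was 0.0012, against 0.048 over all peaks. Differences on this scale understate the change of low peaks. By more than 1 on the log2 scale, 130 were higher and 355 lower, while 1.53% and 5.62% of all peaks were. At 877 peaks (16.2%, against 12.9% of all) the 6 fasted libraries did not overlap the 6 fed ones.

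More peaks were lower than higher in all 15 alternatives, and the scale moved the balance most. When peaks within 1 kb of gene starts set the scale of each library, 503 were higher and 1542 lower, since that scaling shifts the median of all peaks by -0.12. Leaving out the lowest 25% of peaks kept 3940 of these peaks, 653 of them higher and 665 lower. Single mice also moved the counts: without fasted mouse A 564 were higher and 924 lower, and without fed mouse B 604 and 759.

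The lower share was smaller close to gene starts. Between 1 and 2.5 kb, 118 of 694 peaks were higher and 110 lower (17.0% and 15.9%). Beyond that the lower share was 21.7% at 2.5 to 5 kb, 22.2% at 5 to 10 kb, 21.9% at 10 to 15 kb, 22.8% at 15 to 20 kb and 21.2% at 20 to 25 kb. The higher share stayed between 15.4% and 17.0% in all 6 bins. Upstream peaks were higher in 16.6% and lower in 20.3%, and downstream peaks in 14.8% and 24.5%. These shares were not compared by a test, since peaks are not replicates. Scaled to gene starts, 70 were higher and 148 lower between 1 and 2.5 kb.

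**Figure D1:**
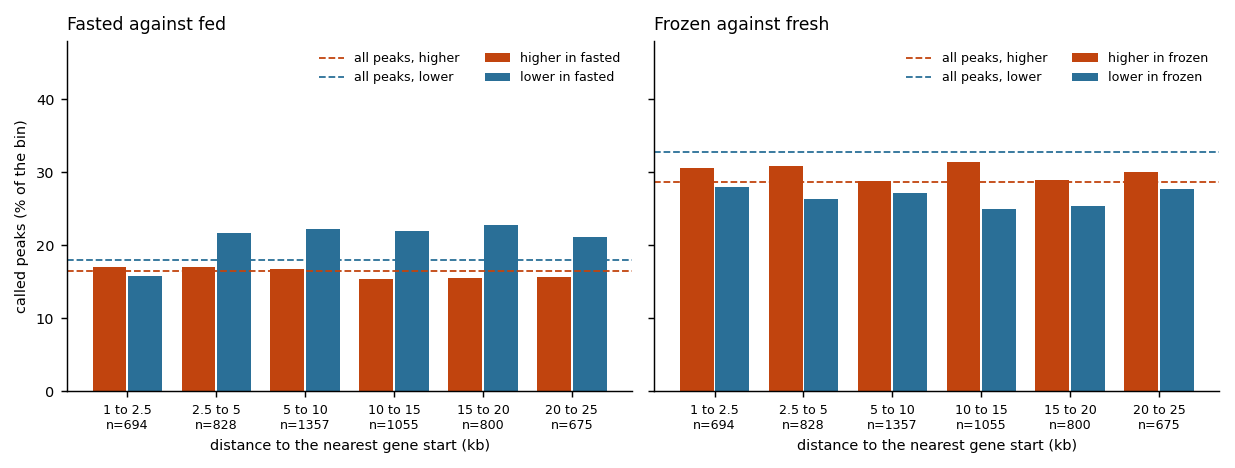
Share of intergenic peaks called higher (red) or lower (blue) in fasted against fed mice (left) and in frozen against fresh liver (right), by distance to the nearest gene start in kb; dashed lines give the shares over all 52530 peaks. The lower share in fasted mice is 15.9% in the nearest bin and 21.2% to 22.8% in the others, while the higher shares lie near the dashed line.

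Calls also varied with level. Cut into 4 equal bins by mean reads, the lowest bin had 178 higher and 429 lower of 1353 peaks (13.2% and 31.7%). The highest bin had 242 higher and 183 lower of 1352 (17.9% and 13.5%). The same order held over all peaks of the table, with 30.1% lower in the lowest bin and 7.58% in the highest. The 5 peaks with the highest means, nearest to Gm1600, Hjurp, Insig1, Sardh and Sertad1, did not pass the test. At Sertad1, a cell cycle and transcription cofactor, levels were 601, 599 and 624 reads in fasted, against 571, 591 and 562 in fed mice, a log2 difference of 0.09 ± 0.05 (limma, adjusted p = 0.194).

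Set beside other classes, near intergenic peaks stood between promoters and later introns in their lower share. Of 6396 peaks in intron 1, 839 were higher and 1424 lower, and of 12113 peaks outside the classes named here 2058 and 2401. Of 5158 intergenic peaks beyond 25 kb, 17.3% were higher and 26.7% lower, of 8819 peaks in intron 2 or later 13.3% and 29.2%, and of 14635 promoter peaks 19.4% and 3.80%. Over samples, the median level of near minus far intergenic peaks was 0.10 ± 0.0071 in fasted and 0.033 ± 0.0022 in fed mice on the log2 scale (SD, n = 3 mice each). All 3 fasted mice lay above the fed mice, and the exact permutation test gave p = 0.1, the smallest that 3 against 3 allows. Against later introns it was 0.14 ± 0.013 in fasted and 0.020 ± 0.024 in fed mice, and against promoters -0.93 ± 0.024 and -0.79 ± 0.029 (exact permutation p = 0.1 each). None of these passed at 0.05, also after adjustment over the 8 tests of this kind.

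Among the peaks that rose most stood those of regulatory kinases and of fat-handling genes. The largest differences among peaks above the median level with no overlap between fasted and fed libraries, 1 peak per gene, were taken as examples. Sik1 encodes a kinase that glucagon and cAMP induce and that restrains glucose production. Its peak 18.4 kb upstream (chr17:31874086-31874286) had 201, 158 and 208 reads in fasted mice, against 29.2, 51.6 and 43.8 in fed mice, a log2 difference of 2.20 ± 0.19 (limma, adjusted p = 0.000154). Of 5 Sik1 peaks, 4 were higher, all 15.3 to 21.4 kb upstream, and the one nearest to the start at 6.43 kb was not called at 0.16 ± 0.08. Another peak overlaps 2 of the 5.

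Pdk4 encodes the kinase that shuts pyruvate dehydrogenase and spares glucose. The Pdk4 peak 13.7 kb upstream (chr6:5509840-5510040) had 239, 255 and 295 reads in fasted, against 45.2, 60.004 and 71.1 in fed mice (2.18 ± 0.16). Its neighbour at 13.3 kb had 62.7, 75.8 and 61.2 reads in fasted, against 15.7, 11.3 and 18.2 in fed mice (2.11 ± 0.24). A Pdk4 peak 22.1 kb downstream went the other way at -0.41 ± 0.14 (limma, adjusted p = 0.0422), a call lost without fasted mouse A or C or any one fed mouse. So 3 of 4 Pdk4 peaks rose and 1 fell.

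Pim3 encodes a serine/threonine kinase of the PIM family. The Pim3 peak 13.6 kb downstream (chr15:88875664-88875864) had 410, 357 and 396 reads in fasted, against 98.3, 84.0 and 83.2 in fed mice, a log2 difference of 2.11 ± 0.09 (limma, adjusted p = 1.37e-05). It overlaps the next Pim3 peak at 13.8 kb, which differed by 1.93 ± 0.14. Pim3 was nearest to 14 peaks, more than any other gene, of which 6 were higher and 0 lower. All 6 higher ones lay downstream between 5.22 and 14.4 kb, and none of the 6 upstream peaks was called.

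Apoa4, an apolipoprotein of triglyceride-rich particles, had a peak 1.81 kb upstream with 196, 151 and 274 reads in fasted, against 66.9, 70.8 and 60.9 in fed mice (chr9:46238933-46239133, 1.59 ± 0.18). Fads2, a fatty acid desaturase, had 243, 248 and 251 reads in fasted, against 104, 64.5 and 93.7 in fed mice at 21.1 kb upstream (chr19:10122467-10122667, 1.48 ± 0.15). All 4 of its peaks were higher, and 3 of these overlap another peak and so share reads. Adamtsl4, a secreted matrix protein, had 178, 152 and 156 reads in fasted, against 51.4, 68.1 and 50.2 in fed mice (1.501 ± 0.14). At the named peak of each of these 3 genes the lowest fasted mouse exceeded the highest fed mouse, as their choice required.

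Other large rises lay beside genes of little known function. Gm28856, a long noncoding RNA, had the largest difference of the set, 2.96 ± 0.50, with 420, 248 and 409 reads in fasted, against 105, 44.5 and 17.3 in fed mice (chr1:130764289-130764489). Its fed mice spread widely and its SE is the largest of the 24 named peaks. The long noncoding RNA genes Gm15441, Dmrt1i and 3930402G23Rik had differences of 1.86 ± 0.15, 1.63 ± 0.12 and 1.62 ± 0.15. All 4 Gm15441 peaks, all 4 Dmrt1i peaks and all 5 peaks of 3930402G23Rik were higher, though 2 of those at Dmrt1i were not called when scaled to gene starts. Of the 4 Dmrt1i peaks, 2 overlap another peak. Dpy19l1, a membrane protein gene, and the microRNA Mir99b completed the set at 1.68 ± 0.15 and 1.63 ± 0.26.

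**Figure D2:**
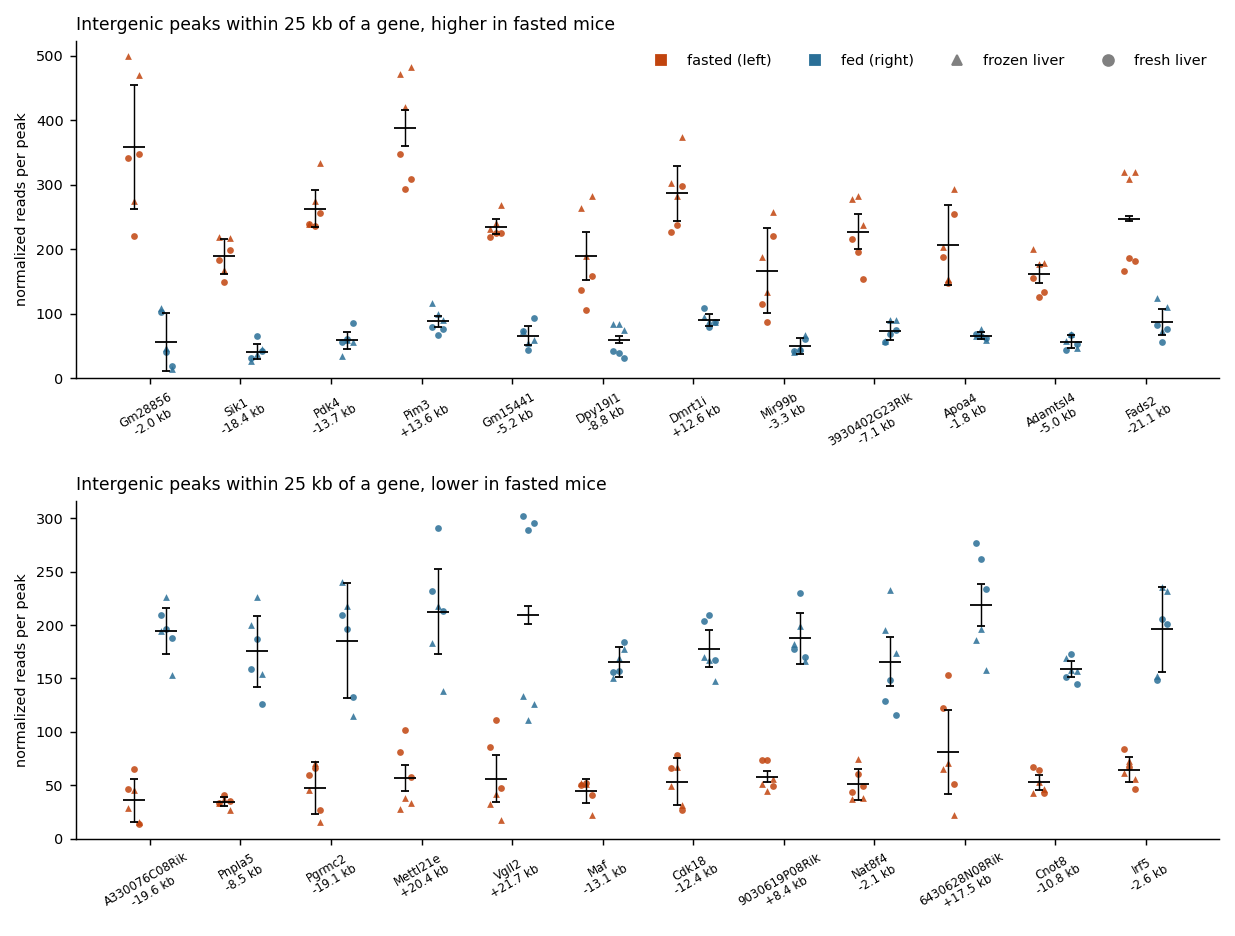
Normalized reads (linear axis) of the 12 higher and 12 lower intergenic peaks with the largest fasting difference among called peaks above the median level whose libraries do not overlap, 1 per gene, labelled by nearest gene and distance in kb. Each library is 1 point (fasted red on the left, fed blue on the right, triangles frozen, circles fresh), and bars give the mean ± SD over the 3 mice of a feeding state. The 6 fasted libraries do not overlap the 6 fed libraries at any of the 24 peaks, a condition of their choice.

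The peaks that fell most included neighbours of a lipase and of several transcription regulators. Pnpla5, a lipase of the family of adipose triglyceride lipase, had 33.5, 39.0 and 30.9 reads in fasted, against 179, 207 and 140 in fed mice at 8.54 kb upstream (chr15:84131612-84131812). Its log2 difference was -2.30 ± 0.16 (limma, adjusted p = 7.87e-05). Maf, a bZIP transcription factor, had 51.0, 51.7 and 31.5 reads in fasted, against 153, 163 and 181 in fed mice at 13.1 kb upstream (chr8:115719920-115720120, -1.92 ± 0.20). Irf5, an interferon regulatory factor, had 72.7, 69.9 and 51.0 reads in fasted, against 150, 221 and 217 in fed mice (-1.59 ± 0.18). Every fasted mouse lay below every fed mouse in each, as their choice required.

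Pgrmc2, a heme-binding membrane protein, was lower at all 4 of its peaks, from -0.83 to -2.06, and 2 of them overlap another peak. Its peak 19.1 kb upstream had 52.6, 68.6 and 21.3 reads in fasted, against 225, 207 and 124 in fed mice (-2.06 ± 0.38). The peak of Vgll2, a cofactor of TEAD factors, had 59.1, 76.2 and 32.6 reads in fasted, against 218, 200 and 211 in fed mice (-1.99 ± 0.25). Mettl21e (-2.01 ± 0.17), Cdk18 (-1.81 ± 0.27), Nat8f4 (-1.69 ± 0.19) and Cnot8 (-1.59 ± 0.12), a subunit of the deadenylase that shortens mRNA tails, followed. The set closed with A330076C08Rik at -2.61 ± 0.37, 9030619P08Rik at -1.69 ± 0.12 and 6430628N08Rik at -1.64 ± 0.33. Adjusted p of the 24 named peaks kept under 0.05 in every setting tried, the highest being 0.0295 by limma or edgeR. They were chosen as called with no overlap of libraries, so this follows in part from the choice.

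Peaks near genes of fat burning were more often higher than lower. On the fatty acid oxidation list, 38 of 71 peaks were higher and 9 lower, against 16.5% higher and 18.1% lower of all peaks, with a median log2 difference of 0.36. Lists share genes, so peaks can count more than once: the 6 higher Lpin1 peaks stand here, among glucocorticoid receptor targets and under fat synthesis. The 3 higher peaks of Pdk4 and 2 of Angptl4 stand here and among glucocorticoid receptor targets. The lists were chosen with earlier results of these data known, so their counts are descriptions, and genes named only by a count of their peaks were chosen after the values were seen. The peak of Ehhadh, a bifunctional enzyme of peroxisomal oxidation, had 80.7, 87.8 and 80.3 reads in fasted, against 10.2, 14.9 and 9.97 in fed mice 2.81 kb upstream (chr16:21790541-21790741, 2.79 ± 0.22). Cyp4a10, a fatty acid hydroxylase and PPARα target, had 156, 171 and 138 reads in fasted, against 45.4, 49.5 and 52.8 in fed mice (1.64 ± 0.12). All 3 peaks of the acyl-CoA thioesterase gene Acot2 and both of the lipase inhibitor Angptl4 were higher. Without the lowest 25% of peaks, 53 of the list were left and 25 were higher. The 9 lower became 5 without fed mouse A or B and 3 without fed mouse C.

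Ppara ran opposite to most of that list. It encodes the receptor that drives fat oxidation genes, and 5 of its 6 peaks were lower, chosen here after their values were seen. The peak at -3.55 kb had 65.0, 75.6 and 58.9 reads in fasted, against 151, 131 and 174 in fed mice (chr15:85731913-85732113, -1.18 ± 0.14). The other called Ppara peaks lay between -0.76 and -0.35, and the count was 2 without fed mouse C and 3 without fed mouse A or with a robust prior. Those 5 are among the 9 lower peaks of the list.

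Ketone body genes had few peaks, 1 of 9 higher and 1 lower. Bdh1, which turns acetoacetate into hydroxybutyrate, had 174, 172 and 165 reads in fasted, against 113, 85.9 and 121 in fed mice (0.67 ± 0.12). Slc16a1, a transporter of ketone bodies and lactate, was lower at -0.49 ± 0.10.

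Gluconeogenesis genes had 15 of 52 peaks higher and 4 lower, with a median of 0.15. The lower count was 7 when scaled to gene starts and 2 without fed mouse B. Slc25a47, a mitochondrial carrier of hepatocytes, had 101, 116 and 101 reads in fasted, against 36.3, 22.3 and 31.1 in fed mice (chr12:108858356-108858556, 1.83 ± 0.19). At Gpt2, which makes pyruvate from alanine, a peak 15.4 kb upstream had 157, 131 and 140 reads in fasted, against 76.2, 70.6 and 67.0 in fed mice (0.95 ± 0.11). Ldha, which interconverts lactate and pyruvate, held 5 of the higher peaks, led by one at 0.98 on the log2 scale, and 3 when scaled to gene starts. Pck1 and G6pc, the first and last steps specific to the pathway, had mixed peaks: 1 of 6 at Pck1 was higher, and G6pc had 1 higher and 2 lower of 9.

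Glucocorticoid receptor targets also had more higher than lower peaks. Of their 84 peaks, 40 were higher and 5 lower (median 0.33), though 25 were higher without fed mouse B, and 2 to 8 were lower over the alternatives. Gadd45g, a stress sensor, had all 4 peaks higher, with 275, 278 and 241 reads in fasted, against 109, 110 and 127 in fed mice at 19.8 kb downstream (1.19 ± 0.09). Of the 4 Gadd45g peaks, 3 overlap another peak. Lpin1, a phosphatidate phosphatase and coactivator of PPARα, had 6 of 9 higher, and 5 of the 9 overlap another peak. Its peak 9.33 kb upstream had 132, 93.7 and 78.6 reads in fasted, against 18.98, 17.7 and 16.5 in fed mice (2.45 ± 0.21), while 3 of the 9 were higher when scaled to gene starts or without fasted mouse A, fed mouse B or fed mouse C. Without the lowest 25% of peaks, 6 Lpin1 peaks were left to test and 3 were higher. All 3 peaks of Errfi1, all 3 of Cebpb and both of Sgk1 were higher, and Tsc22d3, a classic glucocorticoid target, had 0 of 4 called in either direction.

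Glucagon, cAMP and CREB targets had 16 of 46 peaks higher and 3 lower (median 0.17), 4 of them at Sik1 and 4 at Per1. Gcgr, the glucagon receptor, had 283, 281 and 235 reads in fasted, against 141, 150 and 140 in fed mice at 14.9 kb upstream (0.87 ± 0.10), while another of its 4 peaks was lower. Insulin and FOXO1 targets had 9 of 31 higher and 1 lower (median 0.097). Igfbp1, a binding protein for insulin-like growth factors that FOXO1 induces, had 156, 67.3 and 120 reads in fasted, against 28.0, 26.4 and 11.0 in fed mice 6.25 kb downstream (chr11:7203938-7204138, 2.38 ± 0.38). Pik3r1, a regulatory subunit of the insulin-responsive lipid kinase, differed by 0.80 ± 0.16. Sesn2, a sestrin that restrains mTORC1, differed by 0.50 ± 0.11.

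Peaks near sterol genes were more often lower than higher. On the list of cholesterol synthesis and uptake, 12 of 24 peaks were lower and 4 higher, with a median of -0.35. Sc5d, a late sterol desaturase, had 5 of 6 peaks lower, and the one printed above had 173, 187 and 157 reads in fasted, against 326, 313 and 297 in fed mice (-0.85 ± 0.08). A second Sc5d peak 8.25 kb upstream had 21.8, 35.5 and 19.003 reads in fasted, against 98.6, 96.0 and 87.3 in fed mice (-1.93 ± 0.24). Of the 6 Sc5d peaks, 2 overlap another peak. The 4 higher peaks of the list all belonged to Insig2, while 2 of 5 at Insig1, its paralog, were lower. Both encode anchors that hold the SREBP complex in the reticulum. Sc5d had 3 lower peaks without fed mouse A or B, and without the lowest 25% of peaks 15 of the list were left, 7 of them lower.

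Fat synthesis genes split in 2 directions, with 18 of 53 peaks higher and 21 lower (median -0.16). Scd1, which makes monounsaturated fat, was lower at 6 of 6, from -0.50 to -1.43. Its peak 8.69 kb upstream had 182, 182 and 179 reads in fasted, against 364, 411 and 335 in fed mice (chr19:44416296-44416496, -1.04 ± 0.08). Thrsp, a lipogenic activator, was lower at 3 of 3, Pnpla5 at 2 of 3 and Pnpla3 at 2 of 2. The higher peaks stood mostly at Lpin1 with 6, Fads2 with 4 and Fads1 with 2. More were lower than higher in all 15 alternatives.

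Glycolysis and glycogen genes had 0 of 14 peaks higher and 3 lower, 1 each at Pklr, Pfkl and Eno1. Pklr, the liver pyruvate kinase, had 22.1, 26.6 and 27.4 reads in fasted, against 72.8, 117 and 73.8 in fed mice at 2.57 kb upstream (-1.72 ± 0.21). Growth hormone and STAT5 targets had 2 of 31 higher and 6 lower, and Cish, the feedback inhibitor that STAT5 induces, held 5 of the lower ones. Of these 5 Cish peaks, 2 overlap another peak. The first Cish peak had 38.3, 47.1 and 38.2 reads in fasted, against 121, 172 and 161 in fed mice at 8.56 kb downstream (chr9:107305118-107305318, -1.87 ± 0.16). The Eno1 call (-0.28 ± 0.09, limma adjusted p = 0.032) was lost without fasted mouse B or C or fed mouse A or B.

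**Figure D3:**
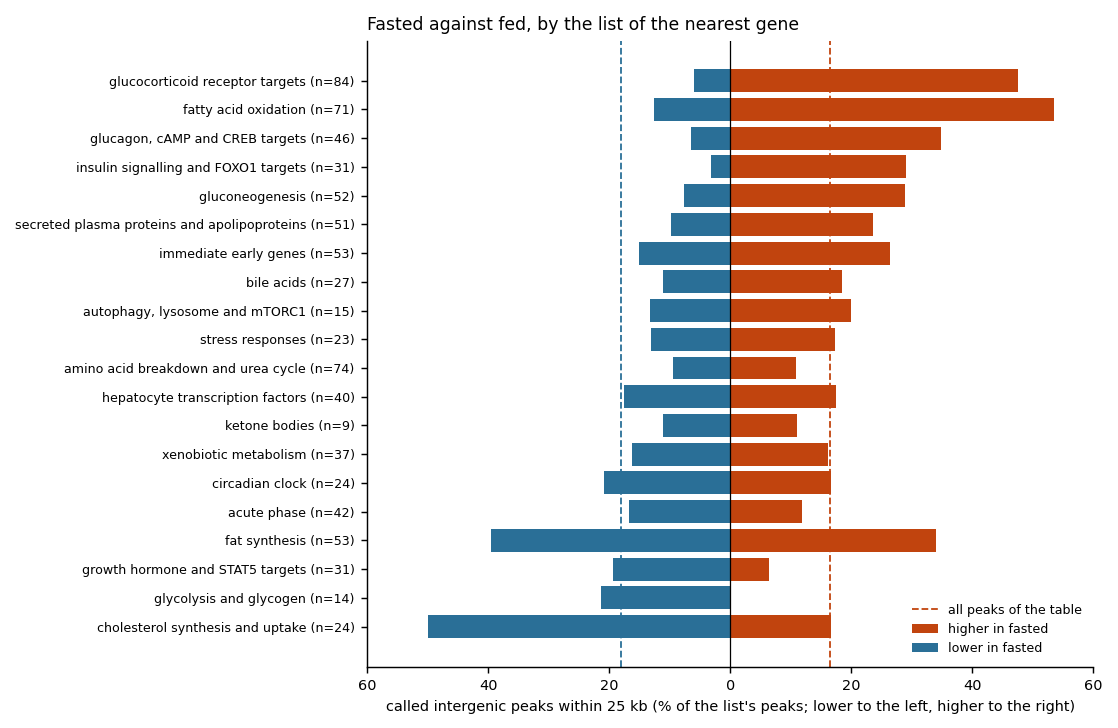
Share of intergenic peaks called higher (right, red) and lower (left, blue) in fasted against fed mice for each gene list with 9 or more such peaks; n is the number of peaks and dashed lines give the shares over all 52530 peaks (16.5% higher, 18.1% lower). Fatty acid oxidation and glucocorticoid receptor targets have the largest higher shares, cholesterol synthesis and uptake the largest lower share.

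Immediate early genes had more higher than lower peaks in all 15 alternatives, 14 of 53 higher and 8 lower, with Ier5 at -1.32 ± 0.14 against Fos at 1.52 ± 0.17. Amino acid breakdown and urea cycle genes had 8 of 74 higher and 7 lower, but 3 and 13 when scaled to gene starts, 14 lower without fasted mouse C and 4 higher and 11 lower without fed mouse C. Among them the amino acid transporter Slc38a4 had 135, 116 and 166 reads in fasted, against 34.4, 20.4 and 33.2 in fed mice (2.24 ± 0.23), and Nags, which makes the activator of the urea cycle, had 8.40, 16.1 and 10.6 in fasted, against 48.8, 49.1 and 47.1 in fed mice (-1.95 ± 0.27). Ass1, a urea cycle enzyme with 11 peaks, had 1 lower. Secreted plasma proteins and apolipoproteins had 12 of 51 higher and 5 lower, and 6 and 8 when scaled to gene starts, or 3 lower without fasted mouse B or any one fed mouse.

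Bile acid genes had 5 of 27 higher and 3 lower, 4 and 5 when scaled to gene starts, and 3 higher without fasted mouse A, fed mouse B or fed mouse C. Nr0b2, the repressor known as SHP that bile acids induce, had 2 higher and 2 lower of 5. Its peak 8.46 kb downstream had 36.2, 22.7 and 19.1 reads in fasted, against 120, 117 and 141 in fed mice (-2.29 ± 0.22), while one at 10.008 kb, which overlaps another peak, differed by 0.77 ± 0.17. Hepatocyte transcription factor genes had 7 of 40 higher and 7 lower, and 0 and 12 when scaled to gene starts. Their higher count was 1 without fed mouse A, 2 without fed mouse B, 3 without fasted mouse A and 4 without fasted mouse C. Cebpa held 4 of the lower ones, with 91.4, 113 and 60.6 reads in fasted, against 202, 243 and 191 in fed mice at 4.30 kb downstream (-1.29 ± 0.20).

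Circadian clock genes had 4 of 24 higher and 5 lower, or 3 lower without fasted mouse A or any one fed mouse. The 4 higher ones were peaks of Per1, a clock repressor that glucocorticoids and cAMP also induce, led by 107, 85.2 and 135 reads in fasted, against 59.3, 40.9 and 33.6 in fed mice (1.29 ± 0.22). Of 5 Per1 peaks, 4 overlap another peak. The lower clock gene peaks included Nr1d1, the clock repressor REV-ERBα, at -0.68 ± 0.12 and Bhlhe41 at -1.34 ± 0.22. Xenobiotic metabolism genes had 6 of 37 higher and 6 lower, or 3 and 9 when scaled to gene starts. Their lower count was 1 without fed mouse B, 2 without fasted mouse A and 3 without fed mouse C. Cyp3a25 had a peak at 1.42 ± 0.23 and Cyp2d10 one at -1.61 ± 0.32. Acute phase genes had 5 of 42 higher and 7 lower, or 2 to 8 and 4 to 9 over the alternatives, with Apcs at 1.10 ± 0.19 and Hamp2, a hepcidin, at -1.58 ± 0.24. Autophagy, lysosome and mTORC1 genes had 3 of 15 higher and 2 lower, with Sqstm1 at 0.83 ± 0.10 and Ddit4 at -1.46 ± 0.15. Stress response genes had 4 of 23 higher and 3 lower, and 2 higher without fasted mouse A or fed mouse A.

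Few of these peaks lay near markers of other liver cells. Endothelial markers had 3 such peaks and 0 called by limma (0 to 1 in the alternatives), macrophage markers 1 and 0 called. Stellate markers had 1 peak, at Col1a1, which was lower at -0.70 ± 0.20 (limma, adjusted p = 0.0224) but not without fed mouse A, B or C. Bile duct markers had none. Lymphocyte markers had 6 peaks, all at Klrb1c, a natural killer cell receptor gene, and 4 of these were higher, or 1 without fed mouse B and 2 without fasted mouse A or fed mouse C or when scaled to gene starts. The part of such cells in the results was not tested.

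Calls beside 1 gene went one way or both. Of 538 genes with 3 or more peaks, 232 had at least 2 called. At 90 of these the called peaks were only higher, at 87 only lower, and at 55 both directions occurred, and neighbouring peaks that overlap share reads. The same counts per gene were not taken over all peaks, of which 34.6% were called, against 37.5% of near intergenic peaks. Efna1, a ligand of Eph receptors, had 6 of 8 lower, 3 of which overlap another peak, led by 72.7, 95.2 and 74.0 reads in fasted, against 186, 172 and 193 in fed mice (-1.18 ± 0.12). Irf2bpl, with 11 peaks, had 1 lower.

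**Figure D4:**
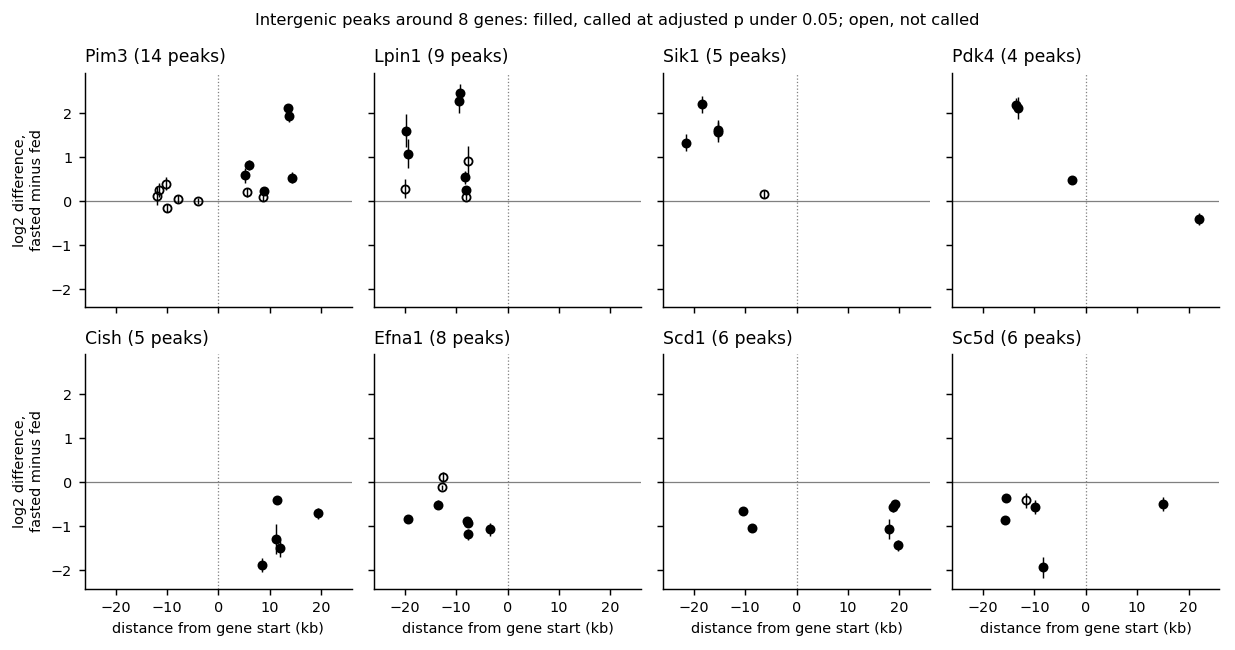
Log2 difference of fasted minus fed mice (± SE) of each intergenic peak around 8 genes by distance from the gene start in kb, negative upstream; filled points are called at adjusted p under 0.05 and open points are not. The higher peaks of Pim3 lie only downstream and those of Sik1 only upstream, and all 6 Scd1 peaks are lower.

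The promoter of the nearest gene did not always move with the peak. For 3515 of the peaks the table also held a promoter peak of that gene. Where the intergenic peak was higher (607), the promoter was higher at 245 (40.4%) and lower at 10. Where it was lower (702), the promoter was higher at 106 (15.1%) and lower at 63 (8.97%). Where it was not called (2206), the promoter was higher at 453 and lower at 96. Across peaks, which are not independent, the log2 differences had r = 0.21. At Scd1 the promoter fell by 2.24 ± 0.24 with its 6 intergenic peaks, at Pdk4 it rose by 0.51 ± 0.05 and at Slc38a4 by 0.72 ± 0.15. At Ehhadh (-0.0095 ± 0.07), Pklr (-0.05 ± 0.06) and Cish (-0.14 ± 0.06) the promoter was not called. At Fbxw11 the promoter rose by 0.40 ± 0.08 while a peak 8.23 kb upstream fell by 0.86 on the log2 scale.

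The fasting difference was then read within each preparation, from the same mice. In frozen liver 773 of 5409 peaks were higher and 966 lower, against 12.8% and 15% of all peaks. In fresh liver 622 were higher and 1042 lower, against 11.4% and 16.1% of all peaks. Of all peaks, 27.8% were called in frozen and 27.6% in fresh liver. The higher calls shared 466 peaks, 60.3% of the frozen and 74.9% of the fresh ones, against 55.2% and 61.7% over all peaks. The lower calls shared 794, which was 82.2% of the frozen and 76.2% of the fresh ones, against 81.0% and 75.1% over all peaks. No peak was called higher in one preparation and lower in the other. At the Pdk4 peak 13.7 kb upstream the log2 difference was 2.502 ± 0.20 in frozen and 1.86 ± 0.14 in fresh liver, and at the Pim3 peak 13.6 kb downstream 2.16 ± 0.11 and 2.07 ± 0.10. By the authors' deposited fold changes and adjusted p-values, 810 of these peaks were higher and 1021 lower in frozen liver. In fresh liver these were 526 and 907. Those values are not from the limma fit used here, so the counts differ in method. Over all 52530 peaks the authors' values give 7101 higher and 8381 lower in frozen liver, and 4689 and 7422 in fresh liver.

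A test of the difference itself called 0 of 5409 peaks as unequal in fasting effect between frozen and fresh liver (limma, interaction, 0% of all peaks). The mouse was left out of this fit, so differences between mice enter its error, and 0 calls do not show equal effects. At unadjusted p under 0.05 there were 277, and edgeR on reads recovered from the normalized values called 0, with 341 unadjusted. With each mouse as a replicate block, limma called 40 (0.752% of all peaks were called), 21 with a higher and 19 with a lower difference in frozen than in fresh liver. The same block with a prior that has no trend over level called 0. At unadjusted p under 0.05 there were 743 with the block and 671 with the block and no trend.

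More of these peaks were called between frozen and fresh liver, a comparison of 6 libraries with 6. With feeding state in the model, frozen liver had 1622 higher and 1433 lower peaks, against 28.7% and 32.8% of all peaks. That is 56.5% called, against 61.5% of all. By more than 1 on the log2 scale 142 were higher and 130 lower (1.91% and 3.34% of all peaks), but 181 and 44 with quantile normalization and 119 and 30 of 3940 without the lowest 25% of peaks. Frozen and fresh libraries did not overlap at 1186 peaks (21.9%, against 26.9% of all). Without the lowest 25% of peaks, 1501 of 3940 were higher and 808 lower. The lower count was 1742 against 1341 higher when scaled to gene starts, which turns the balance.

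The freezing difference varied with the level of the peak. In the lowest of the 4 level bins 7.46% were higher and 43.5% lower, in the next 24.3% and 24.5%, then 35.9% and 21.9%, and in the highest bin 52.2% and 16.1%. The median log2 difference was -0.30 in the lowest and 0.19 in the highest bin. The same order held over all peaks, with 6.998% and 49.7% higher in their lowest and highest bins. Frozen libraries held 3692152 to 9203786 reads in peaks and fresh libraries 5852508 to 14506057. The part of depth in this pattern was not tested.

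Examples for freezing were taken among called peaks above the median level with no overlap between frozen and fresh libraries, 1 per gene. The largest rises among them passed 2 on the log2 scale. Trp53inp1, a p53-induced gene of stress and autophagy, had a lowest, median and highest library of 172, 217 and 274 reads in frozen liver, against 30.9, 39.2 and 59.9 in fresh liver at 8.599 kb upstream (chr4:11147742-11147942). Its log2 difference was 2.34 ± 0.11 (limma, adjusted p = 2.19e-10), and all 4 of its peaks were higher, each overlapping another peak. Cxxc5, a zinc finger protein that binds CpG DNA, had 281, 349 and 404 reads in frozen, against 68.3, 86.3 and 105 in fresh liver (2.02 ± 0.07). Adipor2, an adiponectin receptor, had 154, 196 and 244 reads in frozen, against 46.7, 55.1 and 61.8 in fresh liver at 1.31 kb upstream (1.84 ± 0.09). No frozen library overlapped a fresh one at any of them, a condition of their choice. Fads2 (1.70 ± 0.10), Slc25a30 (1.67 ± 0.10) and Sys1 (1.66 ± 0.10) followed.

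The largest falls on freezing by the same rule, which leaves out peaks below the median level, were smaller. Cggbp1, a protein that binds CGG repeats, had 54.9, 77.4 and 83.2 reads in frozen, against 168, 196 and 216 in fresh liver at 22.0 kb downstream (chr16:64873862-64874062, -1.40 ± 0.11). Nat1, an arylamine acetyltransferase, had 55.8, 83.2 and 89.0 reads in frozen, against 169, 185 and 208 in fresh liver (-1.25 ± 0.10). Fbxw11, a ubiquitin ligase subunit, had 54.6, 88.8 and 127 reads in frozen, against 147, 228 and 291 in fresh liver (-1.32 ± 0.09). It was also lower in fasted than in fed mice (-0.86 ± 0.10). Gm15446, S100z and AI314278 had -1.31 ± 0.11, -1.20 ± 0.12 and -1.14 ± 0.11.

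**Figure D5:**
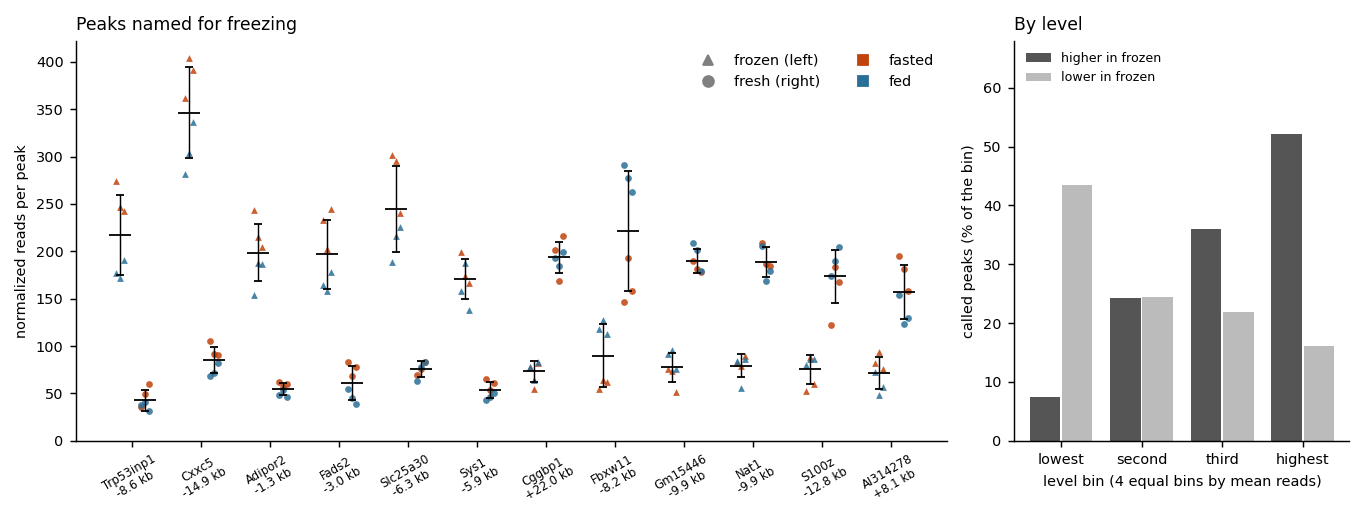
Left, normalized reads (linear axis) of the 6 higher and 6 lower intergenic peaks with the largest freezing difference by the same rule, each library 1 point (frozen triangles on the left, fresh circles on the right, fasted red, fed blue), with mean ± SD over 6 libraries. Right, share of these peaks called higher or lower in frozen liver by bin of mean level. The higher share climbs to 52.2% in the highest bin and the lower share is 43.5% in the lowest.

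Most gene lists had more higher than lower peaks on freezing, against 28.7% higher and 32.8% lower of all peaks. Amino acid breakdown and urea cycle genes had 39 of 74 higher and 2 lower, of which 7 of the higher were at Ass1 and 5 each at Cps1 and Agxt. Bile acid genes had 18 of 27 higher and 1 lower, xenobiotic genes 18 of 37 and 2, and hepatocyte transcription factor genes 18 of 40 and 4. Immediate early genes had 22 of 53 higher and 11 lower, clock genes 9 of 24 and 4, and stress response genes 9 of 23 and 3. Fatty acid oxidation genes had 21 of 71 higher and 5 lower, or 10 lower with the replicate block, and glycolysis genes 3 of 14 higher and 1 lower. Glucocorticoid receptor targets had 33 of 84 higher and 5 lower, or 9 lower with the block. Autophagy, lysosome and mTORC1 genes had 4 of 15 higher and 6 lower. The median level was 155 reads on the amino acid list, 149 on the hepatocyte transcription factor list and 137 on the bile acid list, against 103 over all near intergenic peaks, and the part of level in these counts was not tested. At 34 peaks in transfer RNA genes, a group noticed after the values were seen, 20 were higher on freezing and 0 lower, and 2 were higher and 12 lower in fasted mice.

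The share of all normalized reads that fell in near intergenic peaks was 9.09% ± 0.12 in frozen and 8.80% ± 0.14 in fresh libraries (SD, n = 6 each). Frozen exceeded fresh in 6 of 6 mice by 0.29 percentage points, with p = 0.03125 by exact sign flips, the smallest that 6 mice allow, and 0.0833 after adjustment over 8 tests. In fasted mice the share was 8.86% ± 0.076 and in fed mice 9.04% ± 0.078 (SD, n = 3 each; exact permutation p = 0.1, the smallest possible). With peaks near gene starts left out of the total, the difference of fasted minus fed mice was 0.54 percentage points, so its direction depends on the denominator. Frozen minus fresh, the median level rose by 0.048 against far intergenic peaks and by 0.18 against later introns, each in 6 of 6 mice (exact p = 0.03125, adjusted 0.0833). Against promoters it was -0.037 and higher in 1 of 6 mice (exact p = 0.09375).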

How the data were processed

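ATAC-seq of hepatocyte nuclei gave 12 libraries, 3 in each of 4 groups. Reads were aligned with BWA 0.7.5a-r405 to mm10, and SAMtools, HOMER and DESeq2 were used, per the submitters' processing notes. The deposited table gives reads per 200 bp peak, normalized by 1 factor per library (a signal, per the file headers), with annotation and distance by HOMER. It also holds the authors' log2 fold changes, p-values and adjusted p-values, and a peak score deposited with the table. How the authors called the peaks and pooled samples for it is not given in the sources used here.

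Dividing by the smallest step of each column gave whole reads for 100% of values (tolerance 1e-06 reads), hence the depths of 3692152 to 14506057 reads in peaks. Intervals from reads cover counting error only. All 52530 peaks were fitted with limma 3.58.1 (R 4.3.3) on log2(normalized reads + 1) with a trended prior and Benjamini-Hochberg adjustment over all peaks, called at 0.05. Values are given for intergenic peaks within 25 kb, with other classes, promoters and marker start peaks for comparison. Column letters match no mouse number in the labels. They paired the preparations in the data: deviations of same-letter frozen and fresh libraries correlated at 0.329 to 0.640 and others at most at 0.0213, with 0.1 required of every pair. The libraries of a letter were therefore averaged as 1 mouse for the fasting comparison (3 against 3). Frozen with fresh was fitted over 12 libraries with feeding state as covariate, and the mouse block was an alternative. Values per sample were tested by exact permutation in Python 3.11.15.

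The members and gene lists were chosen with earlier results of these data known. Named peaks were the 12 largest in each direction for fasting and 6 for freezing (called, above the median level, libraries not overlapping, 1 per gene), up to 3 genes per list by lowest p, the 3 genes with the most peaks or calls, the 5 highest peaks and those at the 25 kb limit. Other genes were chosen after their values were seen. A few genes that these rules name are not reported here. Alternatives were pseudocounts of 0.5 and 5, a filter on the lowest 25% of peaks, other scalings, a robust prior without trend, unaveraged libraries and each mouse left out. Chosen after seeing the data were edgeR 4.0.16 on the recovered reads and a block fit with a prior without trend. The scripts were tested on simulated data, where no rate of detection was required of the interaction. Sequences came from RefSeq promoter windows, since no genome sequence was used here.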

Additional observations from a re-analysis of the deposited data

Results flagged for a closer look

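With the mouse as a replicate block, limma called the fasting effect different between frozen and fresh liver at 40 of 5409 peaks. This was 0.74% of them, near the 0.752% of all peaks. Without the block or with a prior without trend, 0 were called. Of the 40, 38 had the larger difference in frozen liver, 7 had opposite signs and 32 were called over both preparations. These counts were not taken over the 395 peaks that the block called among all peaks. By more than 1 on the log2 scale, 1109 of all peaks were called higher and 3482 lower in frozen liver. In fresh liver these were 627 and 2543. The following peaks of the 40 were chosen after their values were seen. The Sel1l3 peak at -23.5 kb had a log2 difference of fasted minus fed mice of 2.99 in frozen and 2.01 in fresh liver. At Sik1, -15.3 kb, it was 1.9995 and 1.13 in frozen and fresh liver. Aqp8, a water channel gene, had -1.71 in frozen and -0.54 in fresh liver, and Tmem268 had -0.74 in frozen and 0.15 in fresh liver. The parts of the prior and of depth in these calls were not tested.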

How the results depend on the processing

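Of 89 named results, 82 kept direction and side of the threshold in every alternative. Over 1328 alternative values, 1302 kept both, 16 lost the call and 9 gained it. The other 1, Pecam1, ran from -0.26 to 0.031 with 1 mouse left out (-0.12 with all, turned without fed mouse A). Peaks named for fasting or freezing were chosen as called with no overlap of libraries, and list peaks by lowest p. Kept calls therefore follow in part from the choice, also with the replicate block. Over the 15 alternatives, 503 to 1223 of the near intergenic peaks were higher and 665 to 1542 lower in fasted mice. Scaled to gene starts, 503 peaks were higher in fasted mice, 468 in frozen and 370 in fresh liver. Without the lowest 25% of peaks, which left 3940 of 5409, 665 were lower in fasted mice, 565 in frozen and 561 in fresh liver, and 808 were lower on freezing. Leaving out 1 mouse gave 564 to 829 higher and 759 to 1162 lower in fasted mice, 516 to 741 and 579 to 990 in frozen liver, and 376 to 631 and 724 to 1078 in fresh liver. On freezing it gave 1477 to 1648 higher and 1254 to 1487 lower. The read share of frozen minus fresh was then 0.265 to 0.329 and the level against far peaks 0.04455 to 0.0531, both at p = 0.0625, the smallest exact p that 5 mice allow. The share of fasted minus fed mice turned to 0.538 with peaks near gene starts left out of the total. The replicate block called 21 higher and 19 lower for the interaction, and 1842 higher and 1759 lower on freezing, and changed no call of a peak named for freezing; the fasting comparison averages the 2 libraries of a mouse instead. The median peak carried a counting error of up to 14.7%, and the part of depth in the calls of low peaks was not tested.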
